A study of Macaca fascicularis and Macaca mulatta with 24 samples.

Results

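The ischemic right cortex was compared with the non-ischemic left cortex of placebo-treated cynomolgus macaques 1 h after their right middle cerebral artery was occluded as a model of stroke. The comparison rests on 6 of the 24 arrays of the study, chosen by title as placebo, 1 hour, with 3 arrays of the right and 3 of the left hemisphere. Every animal carried the right-sided occlusion and received the placebo intravenously 5 min after it, so the left cortex came from operated animals and no animals without an occlusion are among the groups. The labels give 3 animals per group, and a right and a left array with the same number in their titles were read as 1 animal. The age and sex of the animals, and the place of each biopsy within the cortex, are not given in the sources used here. The remaining arrays held placebo animals at 6 h and animals given 2.6 mg/kg of TatNR2B9c, a peptide made to part the NMDA receptor from its scaffold protein PSD-95, at 1 h and 6 h.

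When an artery to the cortex closes, neurons lose the energy supply for their ion pumps, depolarise and release glutamate, and calcium enters them through NMDA receptors. Calcium and depolarisation switch on immediate early genes, which need no new protein for their transcription and include transcription factors of the FOS, JUN, EGR and NR4A families. Heat shock, unfolded protein, hypoxia and inflammatory genes respond to the same injury, at paces that differ between them. The question of the comparison was which transcripts already differed between the ischemic and the spared side at 1 h without the peptide. Each sample was a piece of whole cortex, in which fewer cells of a type and less RNA per cell cannot be told apart.

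Each array read the RNA of 1 cortex sample in the red dye Cy5 against a rhesus Universal Reference RNA in the green dye Cy3. A gene's level is given as the log2 ratio of Cy5 over Cy3 (the ratio), and beside it as the log2 Cy5 intensity alone, quantile normalised between arrays, which leaves the reference out. The cortex channel was alike on 5 of the 6 arrays, with 73.3% to 76.7% of probes well above background, and lower on left array 3, with 45.4%. The mean share was 65.2% ± 17.1 (SD, n = 3) on the left and 75% ± 1.7 on the right, a difference of 9.81 percentage points (two-sided exact permutation p = 0.6, where 0.1 is the smallest that 3 against 3 arrays can give). The reference channel varied far more, with 50.7% to 51.7% of probes well above background on left array 2 and right arrays 1 and 2, but 18% on left array 1, 15.7% on left array 3 and 22.2% on right array 3. Ratios spread least on left array 1, with an SD over genes of 0.363 against 0.648 to 1.09 on the other arrays. On left array 3, 186 genes were more than 8-fold brighter in Cy3 than the mean log2 level of the other 5 arrays. Of these, 173 were also more than 2-fold brighter in Cy5 than the mean of those arrays. The latter are called the 173 bright genes.

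**Figure D1:**
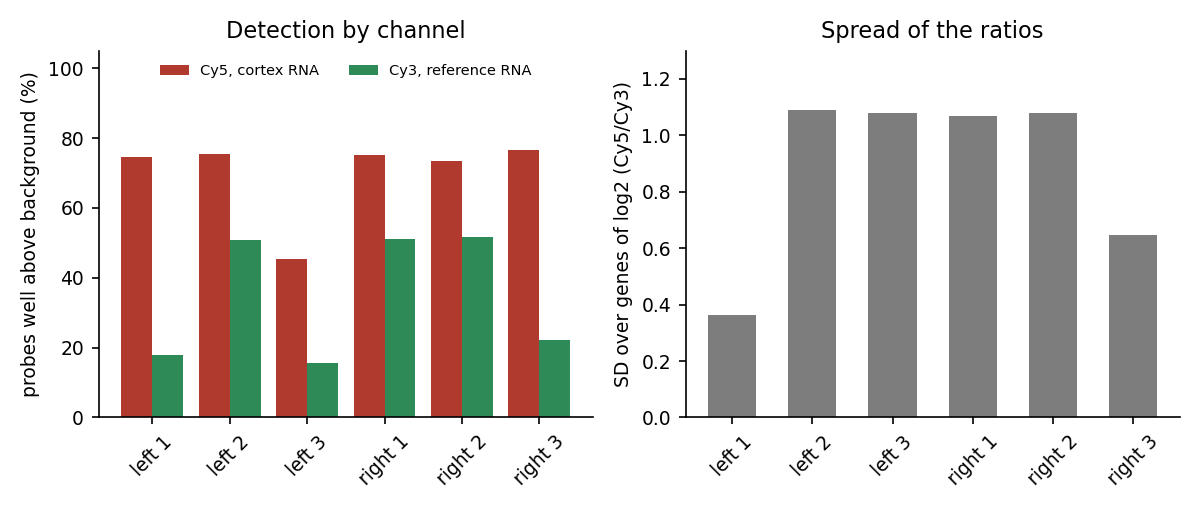
Share of gene probes well above background in the cortex channel (Cy5) and the reference channel (Cy3), in percent, and the SD over genes of the log2 ratio, for each of the 3 left and 3 right placebo arrays at 1 h. The cortex channel is low on left array 3 at 45.4%, the reference channel is at 22.2% or less on left arrays 1 and 3 and right array 3, and ratios spread least on left array 1.

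The markers that define cortex were present on both sides. The neuron genes SNAP25, SYT1, SLC17A7 and GAD1, the astrocyte genes GFAP and AQP4, the microglia gene CSF1R and the endothelial gene CLDN5 were well above background on all 6 arrays, and the myelin gene MBP on 5. Among markers of other tissue, the choroid plexus gene TTR and the red cell gene HBB were well above background on all 6 arrays and the neutrophil gene S100A8 on 5, while the T cell gene CD3D was not measured.

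No gene passed between ischemic and non-ischemic cortex. By limma 0 of 15758 genes had a Benjamini-Hochberg adjusted p under 0.05 (percent called 0), and 210 had an unadjusted p under 0.05, which is 1.33% of genes, 193 of them higher on the right. That share varied with the arrays and the measure used. It was 15 of 43 such genes without left array 3, 710 of 718 without left array 1 and 40 of 100 in Cy5 alone. The adjusted p was 0.9999 for each gene named here, so the values that follow describe 3 animals, and no difference among them passed a test. By ratio, 1482 of 15722 genes with a value on all 6 arrays (9.43%) were higher on the right in all 3 animals and 945 (6.01%) were lower. By Cy5 alone, 1259 (8.01%) were higher in all 3 animals and 1805 (11.5%) lower. The 3 right values lay above all 3 left values (groups apart) for 332 genes (2.11%) by ratio and 246 (1.56%) by Cy5, and below them for 250 (1.59%) by ratio and 391 (2.49%) by Cy5. Only 85 genes were higher and 114 lower in all 3 animals by both measures.

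The 3 animals did not show 1 shared pattern. Over genes, the right minus left differences in ratio had a Pearson correlation of 0.02 between animals 1 and 2, −0.64 between animals 1 and 3 and −0.09 between animals 2 and 3, and in Cy5 of 0.24, −0.26 and −0.02. These are descriptions across genes, which share arrays and are no independent replicates. In each animal the difference in ratio ran against the difference in the reference channel, with correlations of −0.8, −0.46 and −0.64 in animals 1, 2 and 3. The ratio subtracts the Cy3 level, so a negative sign is built in where Cy3 varies. The reference RNA was the same on both arrays. The correlation of the difference in ratio with the difference in Cy5 was −0.48, 0.38 and −0.3. The sign of the difference in ratio was that of the difference in Cy5 for 43.6%, 61.6% and 49.7% of genes. Both measures are therefore given for many of the genes below. Where the ratio or Cy5 stands alone, the other measure can differ in sign.

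NR4A2, an orphan nuclear receptor transcribed as an immediate early gene in neurons, was lower on the ischemic side in every animal by both measures. It was named for ranking among the lowest genes by ratio, so its shared sign by ratio was fixed by that choice. Of all genes, 6.01% were lower in all 3 animals by ratio, 11.5% by Cy5 and 114 of 15722 by both. The NR4A2 probe lies at chr12:19933014-19933073 on the minus strand of the rhesus build rheMac2. Its ratio was 0.26, 1.48 and 1.04 in left cortex of animals 1, 2 and 3 and −0.84, 1.12 and 0.20 in right cortex. Each right value was below the left value of the same animal, while the groups overlapped. The mean difference was −0.77 (SE 0.55, n = 3), with an unadjusted p of 0.18 and an adjusted p of 0.9999 by limma. Log2 Cy5 intensity was 10.66, 12.01 and 11.67 on the left and 9.69, 11.24 and 10.59 on the right, so that right was lower by −0.97, −0.77 and −1.08 in the 3 animals. The Cy5 groups overlapped, and the mean Cy5 difference of −0.94 had an unadjusted p of 0.16 and an adjusted p of 1. NR4A2 was read by 1 probe.

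The other immediate early transcription factors did not share the pattern of NR4A2. FOS, the founding member of the AP-1 family, had ratios of 0.24, −1.50 and −0.54 on the left and −1.50, −1.77 and −0.47 on the right. The mean difference was −0.65 (limma SE 1.27, n = 3 a side), and the 3 animal differences had an SD of 0.96. That difference came mainly from animal 1, and the groups overlapped. In Cy5 FOS was lower on the right in all 3 animals, by −0.20, −0.34 and −0.79. JUNB, another AP-1 subunit, was higher in all 3 animals by small amounts in both measures, with ratio differences of 0.17, 0.41 and 0.29 and Cy5 differences of 0.03, 0.14 and 0.13, and was well above background on 1 of 3 left arrays. JUN, the partner of FOS in AP-1, had ratio differences of 0.40, 0.42 and −0.52, and the stress-induced ATF3 of −1.09, −0.09 and 0.75. In Cy5 ATF3 was higher on the right in all 3 animals, by 0.37, 0.18 and 0.63. Of the AP-1 list, 10 of 11 genes were measured, with a median ratio difference of 0.03 and 6 genes above 0, beside a median of 0.01 and 8327 of 15758 above 0 for all genes. By Cy5, 2 genes of the list were higher and 1 was lower in all 3 animals, beside 8.01% and 11.5% of all genes.

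The zinc finger factors and synaptic genes that follow neuronal activity gave small or mixed differences. EGR1, a zinc finger factor, had ratios of 0.10, 0.66 and 0.23 on the left and 0.48, 0.45 and 0.04 on the right, and its mean difference was −0.01 (SE 0.45). The groups overlapped. NR4A1, the near relative of NR4A2, differed by 0.18, −0.13 and 0.03, with a mean of 0.03 (SE 0.72), and its further probe stood at −0.10. ARC, which moves AMPA receptors out of synapses, differed by 1.26, 0.46 and −0.35 in ratio and −0.01, −0.58 and 0.44 in Cy5. EGR2 was higher on the right in all 3 animals by ratio, by 0.92, 0.39 and 0.60, but by 0.07, 0.38 and −0.70 in Cy5. PTGS2, the inducible cyclooxygenase, differed by 0.79, 0.03 and −0.36. NPAS4, named NXF on the array, a transcription factor of active neurons, was well above background on none of the 6 arrays. All 23 genes of the activity list were measured, with a median of 0.05 and 15 above 0 by ratio and a median of −0.07 and 10 above 0 by Cy5, and 4 were higher and 2 lower in all 3 animals by ratio, beside 9.43% and 6.01% of all genes.

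Inducible inhibitors of signalling, which limit the early response, differed in sign between animals. DUSP1, a phosphatase of MAP kinases, had ratio differences of −1.91, −0.21 and 1.69 and Cy5 differences of 0.37, −0.31 and 0.62. GADD45B, a stress sensor, differed by −0.51, −0.27 and 0.63 in ratio, and ZFP36, which destabilises cytokine mRNAs, by −0.89, −0.27 and 0.28. The same order of animals, with animal 1 lowest and animal 3 highest, held for all 3 of these genes by ratio. The median over 19 of 20 genes of the inhibitor list, which also held CYR61, was −0.51, −0.05 and 0.28 in animals 1, 2 and 3, and −0.05 over the mean differences, with 7 above 0. In Cy5 it was 0.05, with 11 above 0.

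**Figure D2:**
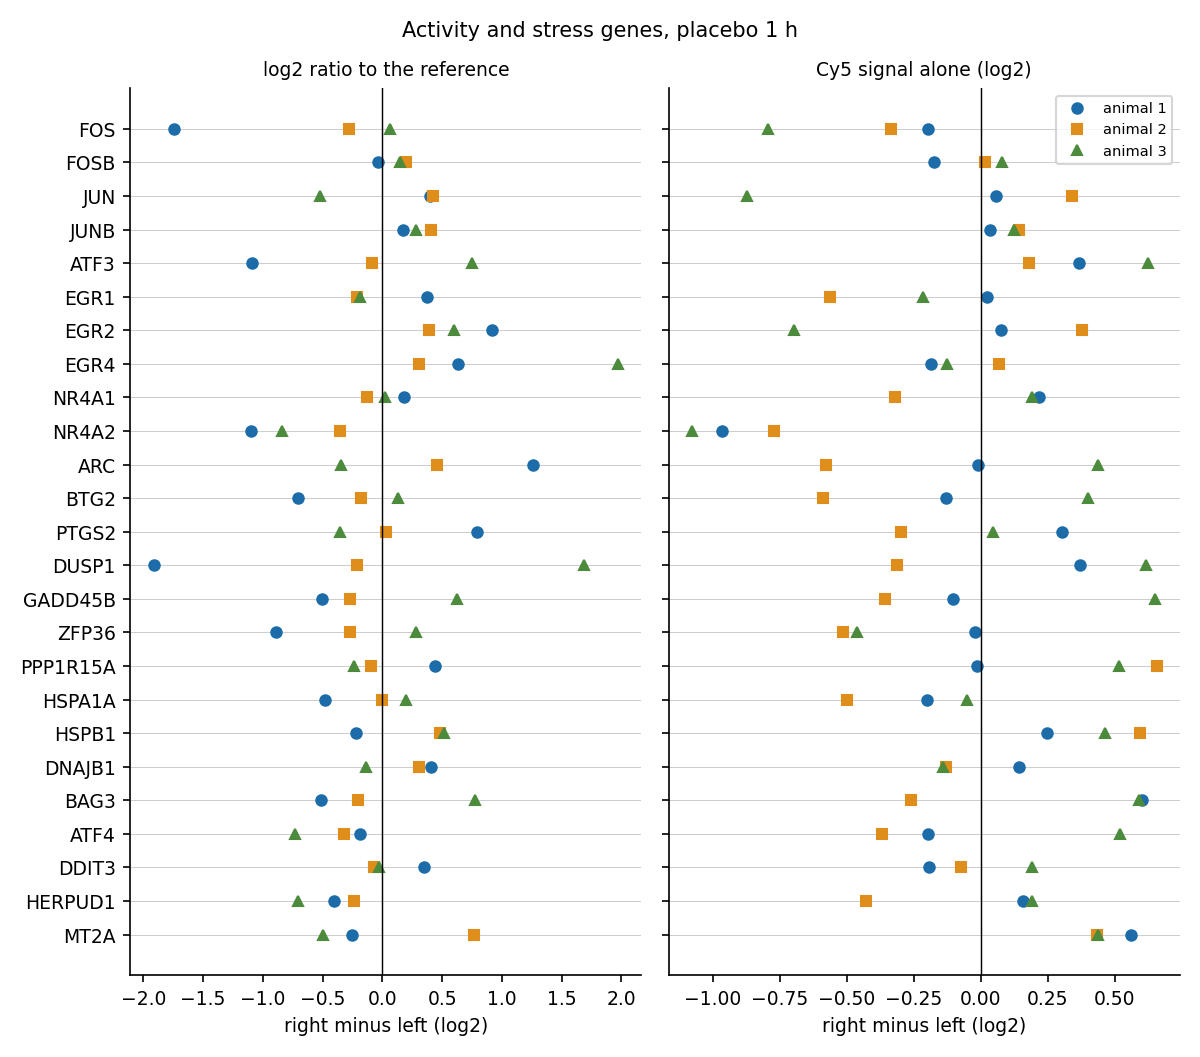
Right minus left difference of activity and stress genes in each of the 3 placebo animals at 1 h, as log2 ratio to the reference and as log2 Cy5 intensity alone. NR4A2 lies below 0 in all 3 animals in both panels, while DUSP1 and ATF3 spread to both sides of 0 by ratio.

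No measured heat shock gene was higher or lower on the right in all 3 animals by ratio, while some were in Cy5. HSPA1A, the inducible chaperone of the HSP70 family, had ratios of 0.14, −0.57 and −0.32 on the left and −0.34, −0.57 and −0.12 on the right, and Cy5 differences of −0.20, −0.50 and −0.05. The ratio groups overlapped. HSPB1, a small heat shock protein, was higher on the right in all 3 animals in Cy5, by 0.25, 0.59 and 0.46, but not by ratio, with −0.22, 0.48 and 0.52. HSP90AA1, the inducible HSP90, had Cy5 intensities of 15.41, 15.39 and 15.26 on the left and 15.23, 15.25 and 15.12 on the right. These groups did not overlap, as for 2.49% of all genes, and its ratio differences were 1.56, 0.30 and −1.75. Of the list, 23 of 28 genes were measured, with a median of 0.08 and 16 above 0 by ratio and −0.02 and 10 above 0 by Cy5. In Cy5, 1 was higher and 4 were lower in all 3 animals, beside 8.01% and 11.5% of all genes.

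The unfolded protein and integrated stress response list lay near 0. Over 21 of 24 listed genes the median was −0.03 with 10 above 0, and −0.02 with 10 above 0 in Cy5, and 2 were lower in all 3 animals by ratio, beside 6.01% of all genes. These were ATF4 and HERPUD1. ATF4, the transcription factor of the integrated stress response, had ratios of 0.17, 0.31 and −0.07 on the left and −0.01, −0.01 and −0.81 on the right, so each right value was below its left partner. HERPUD1, a membrane protein of the degradation of misfolded proteins, was lower by −0.40, −0.24 and −0.70. Neither was lower in all 3 animals in Cy5, where ATF4 differed by −0.20, −0.37 and 0.52 and HERPUD1 by 0.16, −0.43 and 0.19. Among other genes of that response, DDIT3 (CHOP) differed by 0.35, −0.07 and −0.03 in ratio, the lumenal chaperone HSPA5 by 0.38, −0.05 and 0.05, and PPP1R15A, which restores translation, by 0.44, −0.10 and −0.24.

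Hypoxia and glycolysis genes lay near the left level. ADM, adrenomedullin, had ratio differences of −1.02, −0.53 and 0.80, and the glucose transporter SLC2A1 of 0.30, 0.20 and −0.42. DDIT4, an inhibitor of mTOR signalling, differed by −0.06, 0.05 and 0.47. HMOX1, heme oxygenase, had Cy5 intensities of 7.91, 7.90 and 7.76 on the left and 8.11, 8.20 and 8.01 on the right. Its right values lay above all left values, as for 1.56% of genes, but its ratio differences were −1.44, −0.00 and 0.94. The hypoxia list had a median of −0.03 over 29 of 33 genes with 14 above 0, and the glycolysis list a median of 0.06 over 25 of 26 with 16 above 0. In Cy5 these medians were 0.01 and −0.01.

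Several inflammatory mediators were dim or owed their difference to 1 array. The cytokines TNF (named TNF-ALPHA on the array) and IL1B differed by −0.05 and −0.13 in mean ratio, and CCL2 (named MCP-1), which draws monocytes, was well above background on 1 right and on none of the left arrays. IL6 read 7.41, 6.62 and 10.21 in Cy5 on the left and 8.39, 6.64 and 6.51 on the right. Its left array 3 value stood apart, IL6 was one of the 173 bright genes, and its ratio differences were 0.21, 0.03 and 2.48. TNFAIP3, an inhibitor of NF-kB, likewise read 10.68 on left array 3 and 7.90 to 8.27 on the other arrays. Over 34 of 39 inflammatory genes the median was −0.05 with 13 above 0 by ratio and 0.04 with 21 above 0 by Cy5. Apoptosis and p53 genes, 30 of 32 measured, had medians of −0.02 and 0.04, with 13 and 20 above 0.

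Antioxidant genes and metallothioneins were nearly all higher on the right in the cortex channel alone. In Cy5, 23 of 24 measured genes of the 32 listed had a mean difference above 0, with a median of 0.19, beside 7697 of 15758 above 0 for all genes, and 7 were higher in all 3 animals, beside 8.01% of all genes. MT2A, a zinc-binding metallothionein, had Cy5 intensities of 14.21, 12.91 and 12.90 on the left and 14.77, 13.34 and 13.34 on the right. Each right value was above its left partner, by 0.56, 0.43 and 0.44, and the groups overlapped. MT1F, of the same family, was higher by 0.29, 0.44 and 0.24. By ratio the list stood the other way, at −0.11 with 9 above 0, with −0.84, 0.30 and 0.28 in the 3 animals and 0.20 without animal 1, and MT2A differed by −0.26, 0.76 and −0.50. With median centring in place of loess the ratio median was −0.60. In the reference channel alone the median of the list was 0.62, against 0.03 for all genes.

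The median of the NMDA receptor list, and that of the other glutamate receptors, was above 0 by ratio and below 0 in Cy5, but single genes varied. GRIN1, the obligate NMDA receptor subunit, had ratios of −0.70, 1.25 and 1.21 on the left and 1.52, 2.22 and 0.28 on the right, a mean difference of 0.75 (SE 0.45). Animals 1 and 2 were higher on the right and animal 3 lower. In Cy5 GRIN1 was 13.76, 13.76 and 13.22 on the left and 13.72, 13.53 and 13.17 on the right, differences of −0.04, −0.23 and −0.05. GRIN2A, a modulatory subunit, differed by 1.10, 1.09 and −0.53 in ratio and −0.08, 0.39 and 0.27 in Cy5, whereas GRIN2B, the subunit whose end the peptide copies, read close to background at 6.59 to 6.93 in Cy5. DLG4, which encodes PSD-95, was higher in all 3 animals by ratio, by 0.11, 0.28 and 0.10, with Cy5 differences of −0.29, 0.53 and 0.13. NOS1, the synthase tethered to PSD-95, differed by 0.12, 0.15 and −0.04. CAMK2A, the calcium-dependent kinase of the synapse, had the widest range of these, 2.83, 1.22 and −2.23 in ratio, against −0.01, −0.24 and −0.30 in Cy5.

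Of the NMDA receptor and PSD-95 list, 35 of 42 genes were measured. The median ratio difference was 0.14 with 26 above 0, and 0.33, 0.18 and −0.19 by animal, while it was −0.04 without animal 1 and −0.19 with median centring. In Cy5 the median was −0.10 with 6 above 0, and 10 were lower in all 3 animals, beside 11.5% of all genes. The list of AMPA, kainate and metabotropic receptors, which also held NSF, had 21 of 23 genes measured. Its median was 0.21 with 16 above 0 by ratio, −0.08 without animal 1, −0.21 with median centring, and −0.14 with 2 above 0 in Cy5, where 6 were lower in all 3 animals. GRIA2, the AMPA subunit that blocks calcium entry, was one of these, with Cy5 intensities of 13.85, 13.61 and 13.53 on the left and 13.69, 13.43 and 13.21 on the right. Each right value was lower than its partner, and by ratio the differences were 2.45, 1.00 and −1.23.

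Inhibitory receptors and channels divided in the same way. The GABA list had 18 of 22 genes measured and a median of 0.13 with 15 above 0 by ratio, with 0.92, 0.08 and −0.41 in the 3 animals, −0.09 without animal 1, −0.20 with median centring, and −0.14 with 4 above 0 in Cy5. SLC12A5, the chloride exporter KCC2 of neurons, differed by 2.24, 1.10 and −1.35 in ratio and 0.10, −0.18 and 0.10 in Cy5. Voltage-gated ion channels, 55 of 56 measured, had a median of 0.14 with 45 above 0 by ratio, −0.04 without animal 1, −0.09 with median centring, and −0.10 with 15 above 0 in Cy5. TRPM7, a cation channel implicated in ischemic neuron death, differed by −0.70, −0.39 and 0.23 in ratio and −0.08, 0.43 and 0.54 in Cy5. The list of pumps and exchangers, which also held the channels TRPM7 and ACCN1, had 24 of 26 genes measured. Its medians were 0.09 by ratio and 0.01 by Cy5, with 19 and 13 above 0.

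Neuron markers showed the largest list median by ratio of the 28 lists, and the opposite sign in Cy5. Of 44 listed, 41 were measured, 37 were above 0 and the median was 0.31. It was 1.20, 0.45 and −0.46 in animals 1, 2 and 3, −0.11 without animal 1, −0.08 without left array 1 and −0.36 with median centring. In Cy5 the median was −0.14, with −0.10, −0.10 and −0.17 by animal, 6 genes were above 0 and 9 were lower in all 3 animals, beside 11.5% of all genes. STMN2, a tubulin regulator of growing axons, had Cy5 intensities of 15.28, 15.46 and 15.38 on the left and 15.13, 15.13 and 15.06 on the right, and SYT1, the calcium sensor of transmitter release, of 12.31, 12.55 and 12.36 against 12.13, 12.12 and 11.86. All right values of both genes lay below all left values, and so did those of the dendritic MAP2, with 8.92, 9.23 and 8.80 against 8.70, 8.56 and 8.63. Groups were apart in this direction for 4 of the 41 markers and for 2.49% of all genes, and MAP2 and STMN2 differed by 0.54, −0.13 and −0.42 and by 2.05, 0.74 and −1.46 in ratio. SNAP25 and SLC17A7, the glutamate transporter of excitatory vesicles, were not apart in Cy5.

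**Figure D3:**
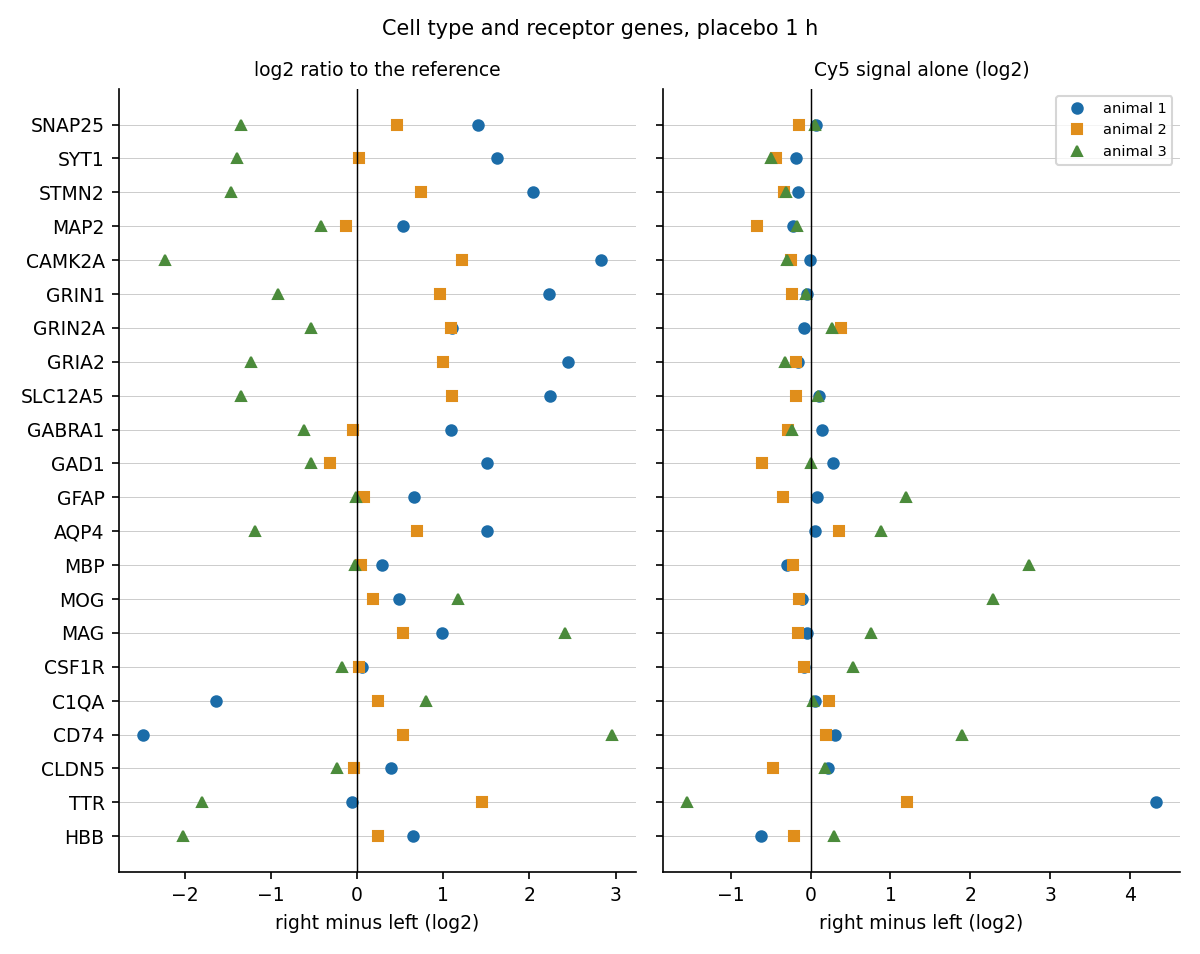
Right minus left difference of cell type and receptor genes in each of the 3 placebo animals at 1 h, as log2 ratio and as log2 Cy5 intensity alone. Neuron and receptor genes run from above 0 in animal 1 to below 0 in animal 3 by ratio and stay close to 0 in Cy5, where myelin genes of animal 3 and TTR of animal 1 lie farthest from 0.

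Oligodendrocyte genes were higher in Cy5 on the right in animal 3, with animals 1 and 2 near 0. MBP, which compacts myelin, had Cy5 intensities of 8.46, 8.71 and 7.97 on the left and 8.17, 8.49 and 10.70 on the right, and MOG, on the myelin surface, of 10.34, 11.02 and 10.38 against 10.24, 10.88 and 12.66. Animals 1 and 2 were slightly lower on the right and animal 3 was higher, by 2.73 for MBP and 2.28 for MOG. The Cy5 median of the 23 measured genes of 25 listed was −0.12, −0.21 and 1.68 in the 3 animals, and all 23 had a mean above 0. Without animal 3 their median was −0.17. A further probe for MBP had a mean Cy5 difference of 0.01, against 0.74 for the probe used. By ratio the list was at 0.13 with 19 above 0, and −0.03 in animal 3. These markers moved with animal 3 beside its GFAP (Cy5 differences of 0.08, −0.35 and 1.19) and AQP4 (0.06, 0.35 and 0.88), and the share of white matter in the biopsies was not tested.

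Astrocyte and microglia markers gave smaller medians. Astrocyte markers, 23 of 27 measured, had medians of 0.12 by ratio with 18 above 0 and 0.02 by Cy5 with 12 above 0. Microglia and macrophage markers, 23 of 29 measured, were at −0.03 by ratio with 10 above 0, but at 0.14 in Cy5 with 21 above 0 and 9 higher in all 3 animals, beside 8.01% of all genes. CD74, the invariant chain of MHC class II, had Cy5 intensities of 10.44, 10.29 and 9.48 on the left and 10.74, 10.48 and 11.37 on the right, with all right values above all left values. B2M, the light chain of MHC class I, was likewise apart at 14.53, 14.51 and 14.28 against 15.33, 14.68 and 14.88. By ratio CD74 differed by −2.49, 0.54 and 2.96 and B2M by −0.78, 0.55 and −1.35. CSF1R, the growth factor receptor of microglia, differed by −0.09, −0.08 and 0.53 in Cy5.

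Vessel and blood markers gave no common direction. Endothelial and mural markers, 29 of 30 measured, had medians of 0.02 and 0.06 in the 2 measures, and CLDN5, a tight junction protein, differed by 0.22, −0.47 and 0.18 in Cy5. In Cy5, 6 of the 29 endothelial and mural markers were higher on the right in all 3 animals and 1 was lower, beside 8.01% and 11.5% of all genes. The 1 lower was PECAM1, an adhesion molecule of endothelium, by −0.09, −0.03 and −0.64. Neutrophil, platelet and red cell markers, 19 of 26 measured, had medians of 0.04 by ratio and −0.0024 by Cy5, and HBB differed by −0.62, −0.21 and 0.29 in Cy5. Lymphocyte markers, 15 of 21 measured, stood at −0.12 and 0.09. Meninges and choroid plexus markers, 20 of 25 measured, stood at −0.13 and 0.04. TTR, made in the choroid plexus, varied widely, with Cy5 intensities of 8.29, 12.81 and 11.20 on the left and 12.62, 14.01 and 9.65 on the right. Animals 1 and 2 were higher on the right by 4.33 and 1.20 and animal 3 lower by −1.55, and how much choroid plexus each biopsy carried was not tested.

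Ribosomal genes were lower by ratio but not in Cy5. Cytosolic ribosomal proteins, 52 of 79 measured, were at −0.30 by ratio with 8 above 0, and by animal at −0.28, 0.24 and −0.58, and −0.03 without animal 3. In Cy5 they were at 0.09 with 34 above 0, and their median in the reference channel alone was 0.60, against 0.03 for all genes. RPL9, the lowest of them, had a mean ratio difference of −0.74 (SE 0.36, unadjusted p = 0.053, adjusted p = 0.9999 by limma), and Cy5 differences of −0.18, 0.94 and 0.49. Oxidative phosphorylation genes, 54 of 76 measured, stood at 0.04 by ratio and 0.11 by Cy5 with 43 above 0, the proteasome, 30 of 34, at −0.01 and 0.04, and reference genes, 13 of 15, at −0.02 and −0.02. Neurotrophic factors and receptors, 30 of 32 measured, were at 0.10 and −0.03. BDNF, the growth factor induced by neuronal activity, differed by 0.47, 0.21 and −0.42 in ratio.

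**Figure D4:**
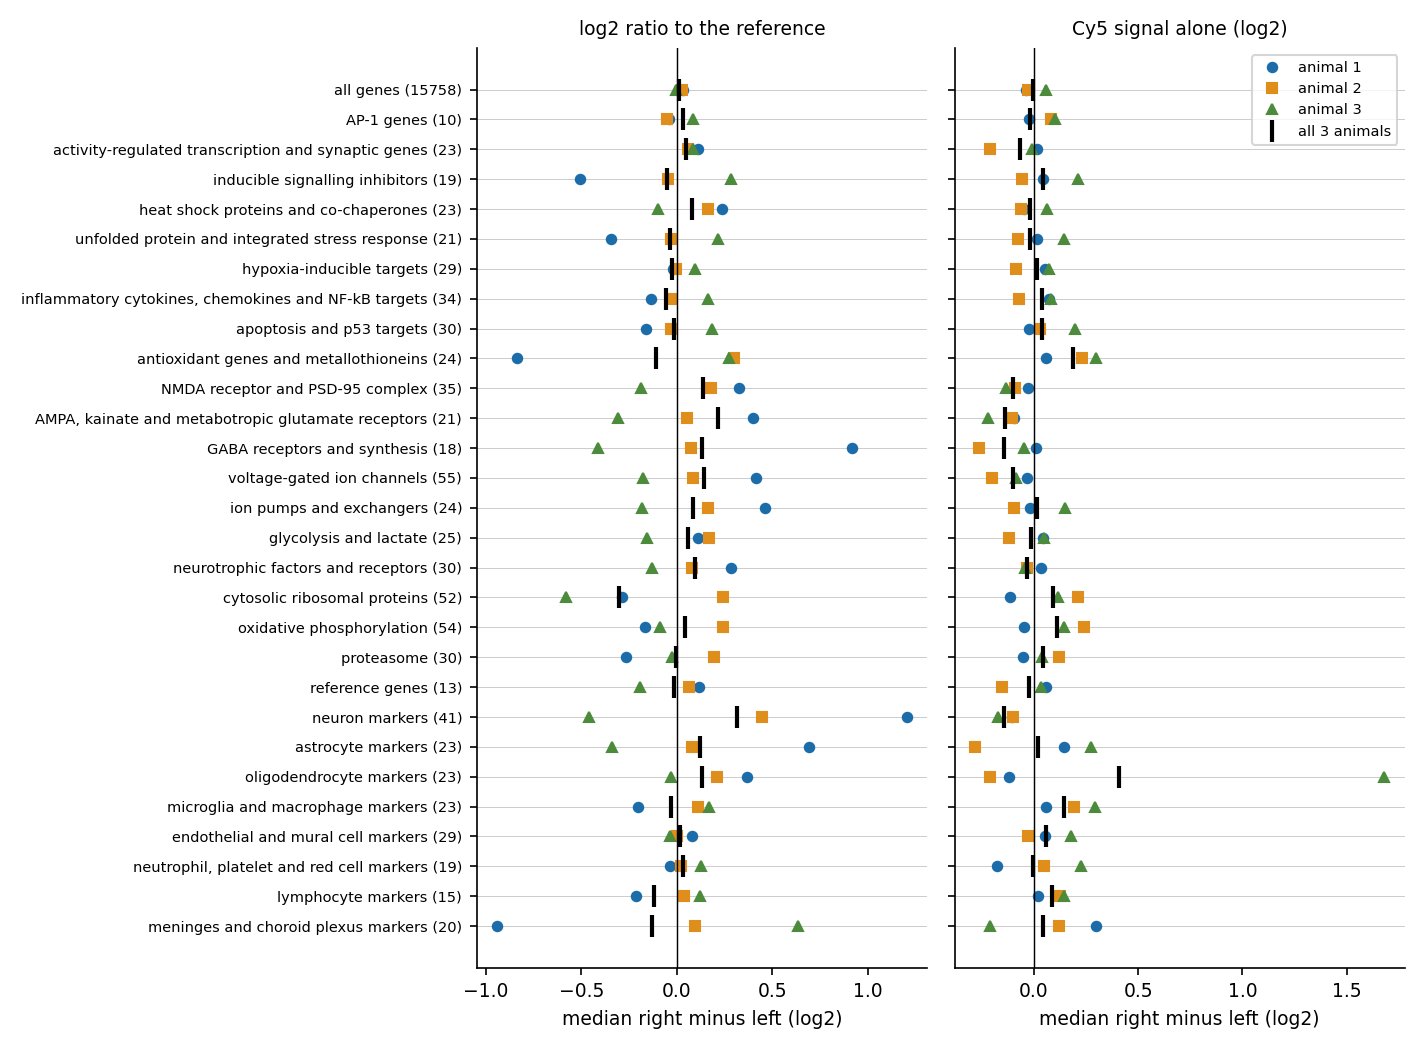
Median right minus left difference of each of the 28 gene lists and of all genes, for each of the 3 placebo animals (points) and for the mean over animals (black ticks), by log2 ratio and by log2 Cy5 intensity. Neuron markers lie highest by ratio at 0.31 and ribosomal proteins lowest at −0.30, while in Cy5 oligodendrocyte markers lie highest at 0.41 through animal 3.

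The 10 genes that ranked highest by ratio included several of neurons, and none of the 10 was higher in all 3 animals in Cy5. The rule took the 10 highest and 10 lowest genes with a symbol by the least of their 3 differences, among 7397 that were well above background on all 6 arrays. The highest were SNPH, which anchors mitochondria in axons, with a least difference of 0.89, the G protein subunit GNG3 with 0.87, the cannabinoid receptor CNR1 with 0.84, the inositol trisphosphate kinase ITPKA with 0.78 and the inward rectifier KCNJ4 with 0.77. They were followed by RRP22 and KCTD4, the calcium channel subunit CACNA2D3, SEC22L3 of vesicle transport and the myelin protein MAG, down to 0.53. ITPKA had ratios of −0.07, 1.08 and −0.99 on the left and 1.53, 1.85 and 0.45 on the right, a mean difference of 1.27 (SE 0.40), with an unadjusted p of 0.0053 and an adjusted p of 0.9999 by limma. Each right value was above its partner by ratio, and its Cy5 differences were 0.19, 0.06 and −1.20. KCNJ4 was higher by 1.54, 0.77 and 1.63 in ratio and lower by −0.06, −0.50 and −0.77 in Cy5, with all right Cy5 values below all left ones. CNR1 and KCTD4 were among the 173 bright genes of left array 3. Further probes of CNR1, KCNJ4 and RRP22 had smaller mean ratio differences of 0.33, 0.63 and 0.62, against 1.41, 1.31 and 1.20 for the probes used. A further probe of SEC22L3 was at −0.04, against 0.66. At the other end stood C4H6orf62 with −0.42, ARL6IP4 with −0.40, NR4A2 with −0.36 and AADAT, an enzyme of the kynurenine pathway, with −0.28, and HERPUD1, DNAJC10, STAM2, ERO1LB and ATF4 were also among the 10, up to −0.19. A further probe of C4H6orf62 had a mean ratio difference of 0.07, against −0.48 for the probe used. AADAT had non-overlapping groups by ratio, but was higher on the right in Cy5 by 0.06, 0.73 and 2.10.

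The differences at 1 h under placebo were set beside those of the TatNR2B9c animals at 1 h and the placebo animals at 6 h, which are other animals on other arrays. By limma 0 of 15757 genes passed for the difference between TatNR2B9c and placebo at 1 h in the right minus left value, with 273 at an unadjusted p under 0.05, and 0 of 15758 for 6 h against 1 h, with 307. NR4A2 was higher on the right in all 3 TatNR2B9c animals, by 1.20, 0.67 and 1.25, against −1.10, −0.36 and −0.84 under placebo, and the difference of 1.81 had an adjusted p of 1. FOS was higher by 2.62, 1.22 and 2.30 under TatNR2B9c, against −1.74, −0.27 and 0.07 under placebo (difference 2.70, adjusted p of 1 by limma). At 6 h the placebo animals spread widely, with −0.75, −1.22 and 0.82 for NR4A2 and −1.29, −5.42 and 3.03 for FOS. Placebo 1 h arrays were extracted with a software version other than those of both other groups, so treatment or time and the software version cannot be told apart.

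**Figure D5:**
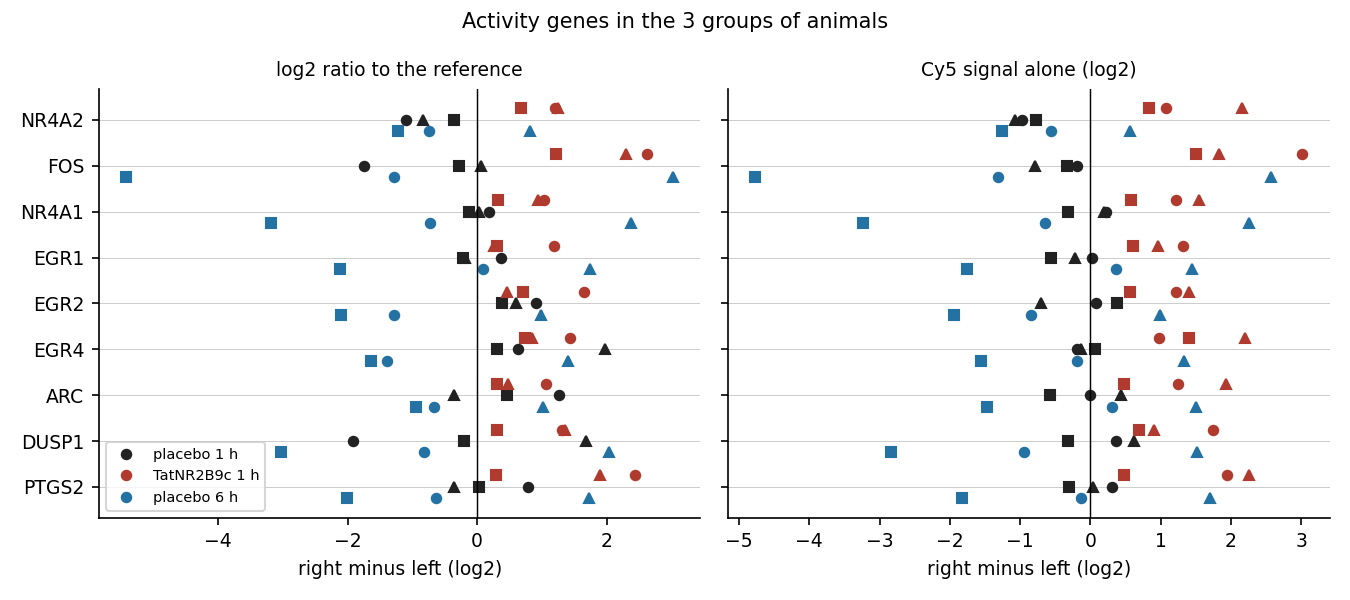
Right minus left difference of 9 activity genes in each animal under placebo at 1 h (black), TatNR2B9c at 1 h (red) and placebo at 6 h (blue), by log2 ratio and by log2 Cy5 intensity, with circles, squares and triangles for animals 1, 2 and 3 of each group. NR4A2 lies below 0 in all placebo 1 h animals and above 0 in all TatNR2B9c animals, and the placebo 6 h animals lie on both sides of 0.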

How the data were processed

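Per the file headers, the authors extracted 2-colour Agilent images with Feature Extraction 9.5.3.1 for these 6 arrays, whereas the submitters' processing notes name 10.7.3.1. The deposited intensities are mean spot signals and median local backgrounds on a linear scale, per the file headers, and the processed intensities are background-subtracted and dye-normalised by that software. The log10 ratio, also deposited and defined per the file headers, divides the processed Cy5 by the processed Cy3 signal, and the same log10 values stand in the authors' series matrix. The deposited signal flags are scores of 0 or 1, per the file headers. Per the labels, cortex RNA was in Cy5 and the reference in Cy3 on every array, with no dye swap, so dye bias was not tested. Probes were designed on the rhesus build rheMac2, so a mismatch with cynomolgus RNA can lower a signal.

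Each array held 41851 spots, 1417 of them controls. limma 3.58.1 in R 4.3.3 corrected background (normexp, offset 50) and normalised ratios by loess within arrays, with control spots at weight 0. Non-uniform spots were left out and spots of a probe averaged. Probes well above background in Cy5 on all 3 arrays of at least 1 of the 8 groups were kept (17226), and a gene was read by its brightest probe (15758 genes). Genes carry the names in the array files, which leave 2774 of 20217 probes unnamed. limma (lmFit, eBayes, two-sided, Benjamini-Hochberg threshold 0.05) was fitted to all 24 arrays with 1 mean per group. Cy5 alone was quantile normalised. The limma fit was tested on simulated data with independent noise, each gene having the same spread on all arrays. That simulation held no weak reference channel, outlying array or animal effect, so it does not bear on those limits here. The R package data.table (version 1.17.8), Python 3.11.15, pandas 2.3.3 and matplotlib 3.10.9 were also used. The number of arrays limits the precision.

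Named genes were a fixed set within the 28 lists, the 10 highest and 10 lowest by the least animal difference, and the highest and lowest member of each list (163 genes, not all described). The members and lists were chosen with earlier results of these data known. Pairing comes from the title numbers. The correlation of same-numbered arrays in their deviations from the group means was −0.71, 0.69 and −0.29 by ratio and 0.19, 0.52 and 0.14 by Cy5. Left array 1 with right array 3 gave 0.76 by ratio and 0.28 by Cy5, so these values do not settle the pairing. Right arrays sat at other slide positions than left arrays, so side and position cannot be told apart. Animals 1 and 2 shared slide 1, and animal 3 was on slide 2. Alternatives covered background, normalisation, filter, block, weights and left-out arrays.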

Additional observations from a re-analysis of the deposited data

Results flagged for a closer look

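For 6 named genes, all 3 placebo animals at 1 h differed in one direction and all 3 animals of another group in the opposite one, by log2 ratio. NR4A2 was at −0.77 here and at 1.04 under TatNR2B9c at 1 h. ITPKA was at 1.27 here and at −0.50 under TatNR2B9c, KCNJ4 at 1.31 and −0.81, GNG3 at 1.06 and −0.32, and DLG4 at 0.17 and −0.06. CACNA2D3 was at 0.90 here and at −0.27 in placebo animals at 6 h. None of these differences between groups passed when tested as an interaction by limma, with an adjusted p of 1 against TatNR2B9c and of 0.9995 against 6 h. NR4A2 had this opposition in Cy5 as well, at −0.97, −0.77 and −1.08 against 1.07, 0.83 and 2.16. NR4A2, ITPKA, KCNJ4, GNG3 and CACNA2D3 were named because all 3 placebo animals shared a sign by ratio, and DLG4 was in the fixed set. For all but DLG4, the placebo side of the opposition was therefore fixed by the choice of genes. How many of all genes show such an opposition was not tested, so the count of 6 cannot be set against chance. Group and image extraction software version cannot be told apart for any of the 6.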

How the results depend on the processing

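The count of 0 genes held under every alternative tried except 2, given below, with 43 (without left array 3, or without right array 1) to 1395 (array weights) genes at an unadjusted p under 0.05. With the animal number as a replicate block it was also 0, with 323 unadjusted in the fit of all 24 arrays and 111 in that of the 6 alone, and the block changed no call. The differences from TatNR2B9c and from 6 h also gave 0 genes with the block. Without animal 1 in Cy5 alone the TatNR2B9c difference gave 1 gene, CDR1 (−2.77, adjusted p 0.00187, limma), and on slide 2 alone it gave 749 and the 6 h difference 641. Of alternatives added after seeing the data, Cy5 alone without animal 1 gave 1 gene, CDR1, higher by 2.34 (adjusted p 0.000519, limma) and named after its values were seen. In Cy5 it read 9.92, 8.32 and 8.60 on the left and 8.94, 10.95 and 10.66 on the right. Slide 2 alone, with 1 array a side assumed to vary like the other groups, gave 716 genes, 161 of them among the 173 bright genes. The reference channel alone, with the same RNA on all arrays, had 2521 genes at an unadjusted p under 0.05, against 100 in Cy5 alone. Of 163 named genes, NR4A2 and SEC22L3 alone kept their sign in all 30 alternatives, and none of the 28 lists did. Both genes were named because all 3 animals shared 1 sign by ratio, so leaving out 1 animal by ratio could not turn them. The fits without a filter, with only the 6 arrays or with a block turned the sign of 0 named genes. Part of this stability was therefore fixed by the choice of genes and settings. A further probe of SEC22L3 was at −0.04. Cy5 alone turned the sign of 96 named genes and 21 lists, median centring, which moves the median of all genes from 0.01 to −0.10, of 68 and 16, and leaving out animal 1 of 69 and 18. Over the 30 alternatives NR4A2 lay between −1.52 and −0.27. A weak signal over background in the reference channel of 3 arrays limits the ratios.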
